A study of Mus musculus with 6 samples.

Results

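Inflammasomes are protein complexes that assemble in the cytosol when a sensor meets microbial material, crystals or damage, and they drive pyroptosis, a lytic form of cell death. A sensor recruits the adaptor ASC, ASC gathers pro-caspase-1, and active caspase-1 cuts the cytokine precursors of IL-1β and IL-18 and the pore protein gasdermin D. A second, non-canonical route runs through caspase-11, which binds lipopolysaccharide in the cytosol and cuts gasdermin D directly. In atherosclerotic vessels the pathway is best known from macrophages, in which cholesterol crystals can activate NLRP3.

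The genes described here are 10 genes of this pathway: the sensors Nlrp3, Nlrp1b, Nlrc4, Naip2, Naip5 and Nlrp12, the adaptor Pycard, the caspases Casp1 and Casp4, and the pore former Gsdmd. They were found by symbol among the 36557 rows of the deposited tables. The 10 symbols had 12 rows, and 9 of the 10 genes passed the filter on low counts and were among the 17392 tested. Nlrp12 was below the filter, and the second row of Nlrp1b was at or near 0 in every library.

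RNA came from the aortic arch together with the thoracic aorta of mice on a high-fat diet for 4 weeks, flushed with buffer before dissection. The tested animals were Apoe-/- MiR26b-/- (3 libraries, "knockouts" here) and the comparison animals were Apoe-/- controls (3 libraries), so both groups lack apolipoprotein E, which clears lipoproteins, and only the knockouts lack microRNA-26b. The labels give no age, strain background or sex, do not tie libraries to animals, and name no cell type in which the deletion acts; p-values therefore measure the spread between these libraries. Mir26b itself was not analysed here, so the deletion was not checked. Levels are CPM (estimated counts scaled to the TMM-adjusted library total) unless TPM is named, errors are SD with n = 3 per group, and a gene is called where edgeR's Benjamini-Hochberg adjusted p is under 0.05.

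Libraries held between 51634139 and 54817547 estimated counts. On principal component 1, which took 61.9% of the variance, knockout replicates 1, 2 and 3 scored -47.05, -55.72 and -0.97 and the controls 25.42 to 45.35, so the third knockout library lay in between. Smooth muscle markers were abundant in every library, with a summed level of 21454 to 25442 CPM in the knockouts and 31710 to 36431 CPM in the controls. Calls of the 10 genes that turn on knockout replicate 3 are given with and without it.

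Inflammasome genes were higher in the knockout aortas. Of the 9 tested genes, 6 rose (Nlrp3, Nlrp1b, Nlrc4, Pycard, Casp1 and Gsdmd), 0 fell and 3 were not called (Casp4, Naip2 and Naip5); at an unadjusted p under 0.05 edgeR had 7 higher and 0 lower, where 17.5% of all tested genes were higher and 13.2% lower. All 9 log2 differences were positive, with a median of 0.77 and a range of 0.09 to 2.07. Over all 17392 tested genes the median log2 difference was -0.003 and 49.4% were positive; 6.5% were called higher and 3.84% lower. In 8 of the 10 genes, Nlrp12 among them, every knockout library lay above every control library, as did 18.9% of all tested genes, while 17.2% of all tested genes had every knockout library lower. By edgeR all 6 calls were lost when any 1 library other than knockout replicate 3 was omitted. Over all tested genes 0 to 52 were called higher under these omissions, against 1131 with all libraries. Without knockout replicate 3 edgeR called 9 of the 10 genes higher, all but Naip5, and 3051 of all 17720 tested genes. DESeq2 called 7 of the genes in all libraries, 6 or 7 without 1 of the other libraries and 8 without knockout replicate 3. Over all genes DESeq2 called 2086 of 16037 higher in all libraries and 3127 of 17716 without knockout replicate 3. Without 1 of the other libraries it called 1172 to 1883 higher. Limma-voom called 1 of the 10 genes, limma on log2 TPM 2 with either pseudocount, and edgeR with a fat covariate 0. Over all 17392 tested genes limma-voom called 559 higher and edgeR with the fat covariate 99. Limma called 461 higher on log2(TPM + 1) and 641 on log2(TPM + 0.1).

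**Figure D1:**
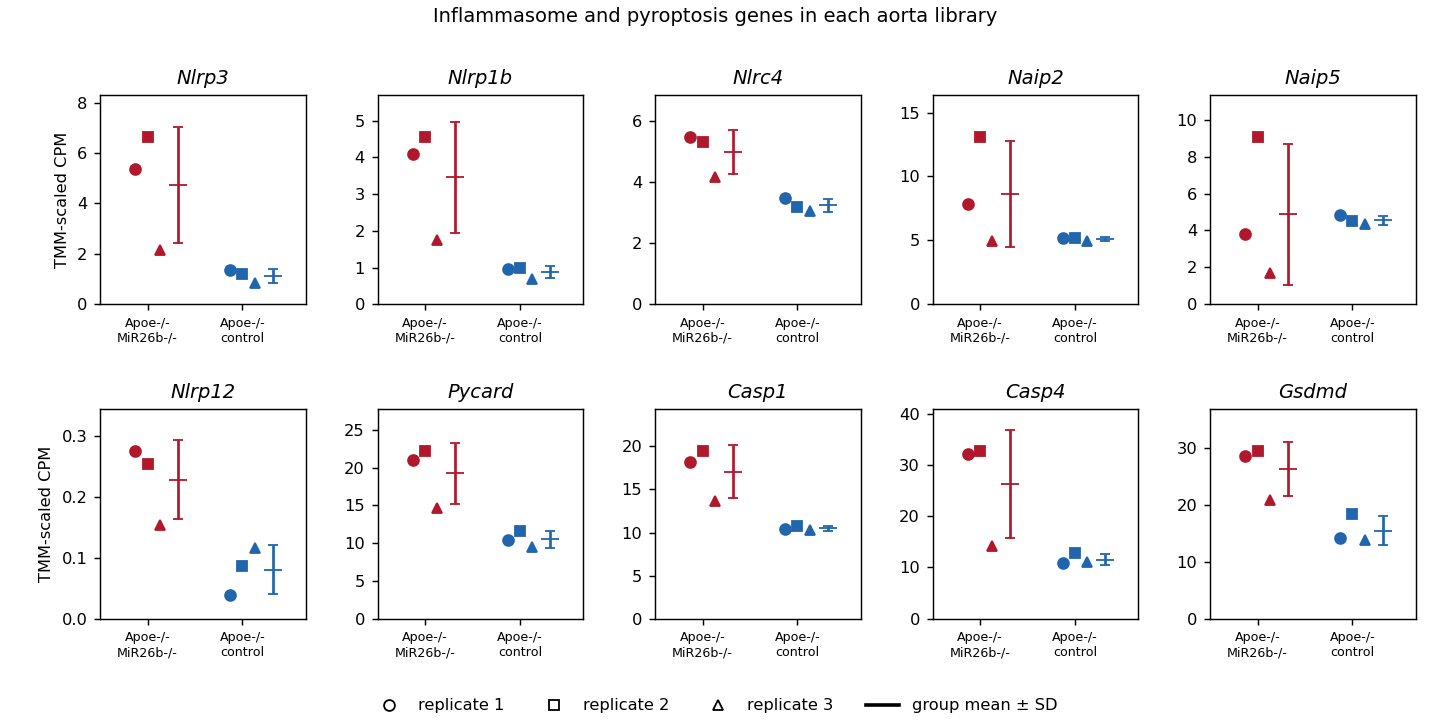
TMM-scaled CPM (y axis, from 0) of the 10 inflammasome and pyroptosis genes in each library, Apoe-/- MiR26b-/- at left and Apoe-/- control at right in each panel; symbols mark replicates and bars the group mean ± SD. Groups separate in 8 panels and overlap for Naip2 and Naip5, and knockout replicate 3 (triangle) is the lowest knockout library in 10 of 10 panels.

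Nlrp3 (ENSMUSG00000032691, GRCm38 chr11:59541568-59566956, plus strand) encodes the sensor of ion flux, crystals and membrane damage. It had 5.35, 6.65 and 2.16 CPM in knockout replicates 1, 2 and 3, against 1.35, 1.19 and 0.835 CPM in the controls. Every knockout library was above every control, and knockout replicate 3 was 1.60-fold the highest control while the other knockouts averaged 2.77-fold its level. The gene rose 4.19-fold, with group means of 4.72 ± 2.31 CPM in knockouts and 1.13 ± 0.264 CPM in controls, a log2 difference of 2.07 (SE 0.43, adjusted p = 0.0379). Over the omission of each library in turn the edgeR log2 difference was 1.74 to 2.41, with adjusted p of 0.00105 without knockout replicate 3 and up to 0.141 without one of the others. Its transcripts shared no 31-base word with any other annotated gene, so no read of that length could be divided with a relative.

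Nlrp1b (ENSMUSG00000070390, chr11:71153102-71230733, minus strand) encodes a sensor that is cut by anthrax lethal factor in mice and is held in check by the peptidases DPP8 and DPP9. Its level was 4.08, 4.56 and 1.74 CPM in the knockouts, against 0.964, 0.986 and 0.683 CPM in the controls. The groups did not overlap, and again the third knockout library was the lowest of its group. Nlrp1b rose 3.94-fold, with a log2 difference of 1.98 (SE 0.39, adjusted p = 0.0340). Of its 31-base words 6.07% were shared with other genes, 4.62% with its close relative Nlrp1a.

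Nlrc4 (ENSMUSG00000039193, chr17:74425438-74459142, minus strand) encodes the sensor partner that NAIP proteins recruit once they bind flagellin or parts of a bacterial secretion needle. It stood at 5.49, 5.31 and 4.18 CPM in knockout libraries, against 3.48, 3.19 and 3.07 CPM in control libraries. The knockouts lay close together and all above the controls, and the rise of 1.54-fold (log2 difference 0.62, SE 0.15, adjusted p = 0.0458) was the smallest of the 6 called. It was also the only one of these 6 that DESeq2 did not call under each omission, with calls in 4 of 6.

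Nlrc4 was also the only one of the 10 genes whose 3′ UTR held a 7-base site for the deleted microRNA. MicroRNAs pair with target transcripts through bases 2 to 8 of the mature strand, the seed, and miR-26b shares its seed with miR-26a, which is made from other chromosomes. The mature strands from RefSeq (GRCm38.p6) follow with the seed in capitals, to show that both family members read the same site; miR-26b-5p lies at chr1:74394324-74394344 on the plus strand.
mmu-miR-26b-5p: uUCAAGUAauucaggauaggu
mmu-miR-26a-5p: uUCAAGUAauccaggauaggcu
The 3′ UTR of transcript Nlrc4-201 is 1404 bases long and held 2 matches to the seed, 385 and 477 bases after the stop codon, at chr17:74426440-74426468 and chr17:74426348-74426376 on the minus strand. They are shown with flanking bases, the 7 bases that pair with the seed in capitals.
Nlrc4 site 1: cgtgtttgtgtTACTTGAccccaagaata
Nlrc4 site 2: gactcaacaagTACTTGAtaagtatgtga
A site of this kind, the 7 seed-pairing bases with or without an A after them, was present in 11.1% of tested genes with an annotated 3′ UTR (1798 of 16142). With the 7-base type that pairs with 6 seed bases and is followed by an A counted too, the share was 20.9%. Shorter 6-base matches were present in Pycard and in Nlrp12, and 35.5% of tested genes had a site of 6 bases or more. A match describes letters in the transcript and is not evidence of pairing in these aortas.

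Naip2 and Naip5 encode the receptors that bind bacterial ligands for NLRC4, NAIP2 the inner rod protein of the needle and NAIP5 flagellin, and they are neighbours on chromosome 13 (Naip2 chr13:100144063-100202092, Naip5 chr13:100211739-100246323, both minus strand). Naip2 had 7.83, 13.1 and 4.96 CPM in the knockouts, against 5.21, 5.18 and 4.97 CPM in the controls. The first 2 knockout libraries were higher than every control and the third was level with the lowest control, so the groups overlapped and the gene was not called (log2 difference 0.75, SE 0.33, adjusted p = 0.179). Naip5 had 3.83, 9.09 and 1.69 CPM in knockout libraries and 4.84, 4.49 and 4.36 CPM in control libraries. Here 1 knockout library lay above the controls and 2 below them, a 5.39-fold range among the knockouts where the controls spanned 1.11-fold, and the log2 difference was 0.09 (SE 0.54, adjusted p = 0.924). Without knockout replicate 3 the log2 difference of Naip2 was 1.03 (adjusted p = 0.0154), and without knockout replicate 2 that of Naip5 turned to -0.72 (adjusted p = 0.306).

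Reads of the Naip genes cannot be divided cleanly. Of the 31-base words in Naip5 transcripts, 53.1% occurred in another gene, 36.7% in Naip6, the other flagellin receptor. For Naip2 the share was 32.8%, of which 21.1% with Naip1, which encodes the receptor of the needle protein. Naip6 had 8.76, 8.11 and 5.21 CPM in knockouts and 2.31, 2.08 and 1.39 CPM in controls, and it rose by 1.93 on the log2 scale (SE 0.27, adjusted p = 0.0216). Naip5 made up 18.2%, 29.1% and 13.7% of the reads assigned to the 4 Naip genes in knockouts, against 38.1%, 36.9% and 39.3% in controls, while Naip6 made up 41.6%, 26.0% and 42.4% in knockouts, against 18.2%, 17.0% and 12.5% in controls. The assignment of Naip reads thus differed between the groups, and whether shared sequence had a part in it was not tested. With the 4 genes summed, a choice made after seeing the data, levels were 21.0, 31.2 and 12.3 CPM in the knockouts, against 12.7, 12.2 and 11.1 CPM in the controls, so knockout replicate 3 was within the control range and the sum was not called (log2 difference 0.84, SE 0.31, adjusted p = 0.123).

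**Figure D2:**
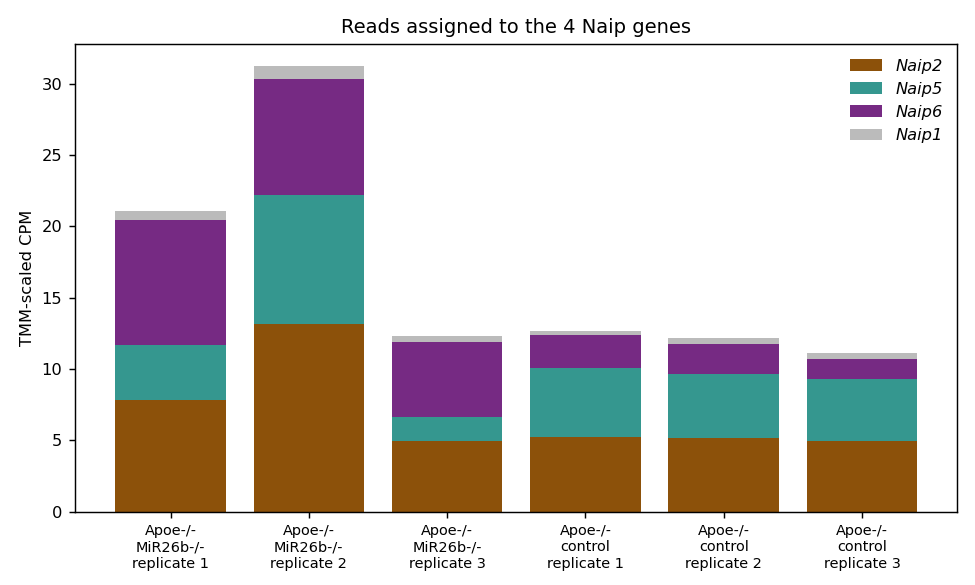
TMM-scaled CPM assigned to Naip2, Naip5, Naip6 and Naip1, stacked for each library (y axis from 0), with the 3 Apoe-/- MiR26b-/- libraries at left and the 3 Apoe-/- control libraries at right. The controls sum to 11.1 to 12.7 CPM with Naip5 a large part, and the knockouts to 12.3 to 31.2 CPM with Naip6 a larger part.

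Nlrp12 (chr7:3218784-3249740, minus strand), a sensor family member that in mice is found in neutrophils and other myeloid cells and restrains NF-κB signalling, was barely detected. Its 2 rows carried the same values, as rows do where reads of identical copies are divided evenly. Each row had 14.7, 13.4 and 8.15 estimated counts in the knockouts, against 2.04, 4.54 and 6.16 in the controls. All knockout libraries were above all controls, at counts where 1 read weighs heavily. With its rows summed the log2 difference was 1.50 (SE 0.43, adjusted p = 0.0706), and with no low-count filter it was 1.43 (SE 0.51, adjusted p = 0.153), so neither fit called it. Without knockout replicate 3 it passed the filter and was called by edgeR (log2 difference 1.65, SE 0.48, adjusted p = 0.0485) and not by DESeq2 (adjusted p = 0.151).

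Pycard (chr7:127989708-127993867, minus strand) encodes ASC, whose pyrin and CARD domains link sensors to caspase-1. It had 21.0, 22.2 and 14.6 CPM in knockout libraries, against 10.4, 11.7 and 9.48 CPM in control libraries. No library of either group crossed into the other, and the gene rose 1.83-fold, to 19.3 ± 4.06 CPM in knockouts, against 10.5 ± 1.10 CPM in controls (log2 difference 0.87, SE 0.17, adjusted p = 0.0340). Of its 31-base words 12.7% were shared, nearly all with the predicted gene Gm45205 (12.0%).

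Casp1 and Casp4 lie side by side on chromosome 9 on the plus strand, Casp1 at chr9:5298517-5307265 and Casp4, the gene of caspase-11, at chr9:5308828-5336783. Casp1 had 18.1, 19.5 and 13.7 CPM in knockouts, against 10.5, 10.8 and 10.2 CPM in controls. The controls were within 1.05-fold of each other and every knockout was at least 1.27-fold the highest of them. Casp1 rose 1.63-fold (log2 difference 0.70, SE 0.14, adjusted p = 0.0338).

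Casp4 showed the widest split among the knockouts of any gene whose groups did not overlap after Nlrp3 and Nlrp1b. Its level was 32.1, 32.7 and 14.2 CPM in knockout replicates 1, 2 and 3, against 10.8, 12.7 and 11.1 CPM in the controls. The first 2 knockouts were nearly equal and averaged 2.29-fold the third, which was 1.11-fold the highest control. Casp4 averaged 26.3 ± 10.5 CPM in knockouts and 11.6 ± 1.02 CPM in controls, 2.28-fold, and was not called by edgeR (log2 difference 1.19, SE 0.31, adjusted p = 0.0567). Without knockout replicate 3 its log2 difference was 1.49 (SE 0.08, adjusted p = 0.000332), and DESeq2 called it in all libraries (adjusted p = 0.000771) and under each of the 6 omissions. Of 13 alternative settings with all libraries, DESeq2 was the only 1 that called Casp4, and the highest adjusted p was 0.182, from edgeR with the fat covariate.

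Gsdmd (ENSMUSG00000022575, chr15:75862327-75867408, plus strand) encodes gasdermin D, whose N-terminal part, once cut, inserts into the plasma membrane and forms the pore through which IL-1β leaves and the cell lyses. It had 28.6, 29.5 and 20.9 CPM in knockout libraries, against 14.2, 18.4 and 13.8 CPM in control libraries. The lowest knockout was 1.14-fold the highest control, control replicate 2. Gsdmd rose 1.70-fold, to 26.3 ± 4.70 CPM in knockouts, against 15.5 ± 2.54 CPM in controls (log2 difference 0.77, SE 0.17, adjusted p = 0.0409). RNA levels do not show how much of the protein was cut.

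Knockout replicate 3 was the lowest knockout library for 10 of the 10 genes and stood above every control for 8 of them, where knockout replicate 1 did for 9 and knockout replicate 2 for 10. How many of all tested genes shared this order was not counted. On principal component 1, taken over all tested genes, knockout replicate 3 (-0.97) also lay between the other knockouts and the controls. Macrophage markers, by their median, were also lowest among the knockouts in replicate 3, as were markers of several other cell types given below. Of 13 listed macrophage markers 12 rose and 1, the efferocytosis receptor gene Mertk, fell. The markers' median log2 level over the control mean was 1.91, 2.10 and 0.88 in knockout replicates 1, 2 and 3. Their summed level was 1595 to 3986 CPM in the knockouts and 766 to 934 CPM in the controls, led by Lyz2 (1652 ± 803 CPM in knockouts, 324 ± 35.4 CPM in controls). The 10 genes summed to 3.51%, 3.59% and 4.92% of the macrophage marker sum in the knockouts, against 6.68%, 7.36% and 7.68% in the controls, so the marker sum was higher by a larger factor than the inflammasome sum. In bulk tissue, more cells of a type and more RNA per cell cannot be told apart, and the part of macrophage content in these results was not tested.

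Other leukocyte lists moved less evenly. In knockout replicates 1, 2 and 3 the median log2 level over the control mean was 1.41, 1.97 and 0.27 for monocyte markers. For neutrophil markers it was 1.70, 2.20 and 0.003. The dendritic cell, T cell and fibroblast medians were also lowest among the knockouts in replicate 3. Those of B cell, smooth muscle, endothelial, epithelial and fat markers were not. Of 5 monocyte markers 2 rose, Ccr2 and Plac8, and their sum was 63.0 to 132 CPM in the knockouts and 16.7 to 46.5 CPM in the controls. Of 9 tested neutrophil markers 1 rose, the receptor gene Csf3r, and 4 were higher at an unadjusted p under 0.05; 8 of the 9 log2 differences were positive, with a median of 1.64, and the list had a sum of 13.8 to 57.2 CPM in knockouts and 6.26 to 14.0 CPM in controls. Mmp8 was at 3.16 ± 1.97 CPM in knockouts and 0.246 ± 0.288 CPM in controls, with no overlap (log2 difference 3.67, adjusted p = 0.0527), and S100a9 at 6.50 ± 5.41 CPM in knockouts and 1.34 ± 0.680 CPM in controls, with overlap. The listed neutrophil genes Ly6g, Elane and Camp averaged at most 0.0972 CPM in knockouts and 0.136 CPM in controls and were not tested. Mpo stood at 0.468 ± 0.0782 CPM in knockouts and 0.337 ± 0.178 CPM in controls. Smooth muscle markers had 4 of 7 members lower and 0 higher. Dendritic cell markers had 3 of 6 higher, fibroblast markers 3 of 6, endothelial markers 2 of 6 and epithelial markers 1 of 3. That epithelial call was Cdh1, at 1.24 ± 0.535 CPM in knockouts and 0.234 ± 0.0992 CPM in controls, while Krt8 and Krt18 were not called. None of 8 T cell and 5 B cell markers was called, with 1 T cell marker higher and 2 B cell markers lower at an unadjusted p under 0.05. Over all tested genes 6.5% were called higher and 3.84% lower. B cell markers summed to 6.08, 8.82 and 6.97 CPM in the knockouts and 9.06, 60.0 and 6.77 CPM in the controls, so control replicate 2 alone stood apart. Of 10 markers of brown and white fat, which surrounds the aorta, 0 were called either way by edgeR and 1 was lower at an unadjusted p under 0.05, with sums of 590, 878 and 2067 CPM in the knockouts and 2563, 1847 and 946 CPM in the controls. With the fat level of each library as a covariate edgeR called 0 of the inflammasome genes, and 99 genes higher and 90 lower in all; the log2 difference of Nlrp3 was then 1.69 (adjusted p = 0.144) and that of Casp4 was 0.77 (adjusted p = 0.182).

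**Figure D3:**
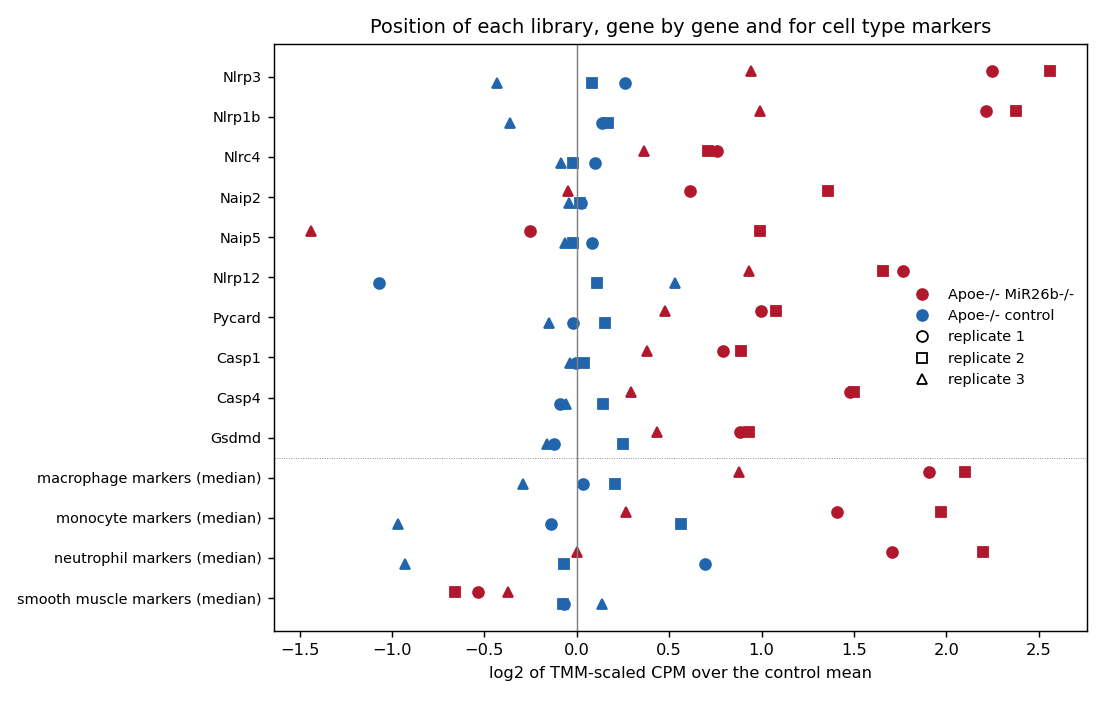
Log2 of TMM-scaled CPM over the control mean (x axis) for each of the 10 genes and, in the lower rows, the median over markers of 4 cell types; red symbols are Apoe-/- MiR26b-/- libraries, blue symbols Apoe-/- control libraries, and shapes mark replicates. Knockout replicate 3 lies left of the other knockouts for the 10 genes and for macrophage markers (0.88, against 1.91 and 2.10). It also lies left of them for monocyte and neutrophil markers, and right of them for smooth muscle markers. For Naip5 it lies at -1.44.

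Levels can be compared between genes only per transcript length, for which the deposited TPM were used. In the knockouts the order was Gsdmd (46.3 ± 7.29 TPM), Casp4 (39.5 ± 14.8 TPM), Casp1 (20.6 ± 3.75 TPM), Pycard (19.6 ± 5.87 TPM), Naip2 (2.87 ± 1.38 TPM), Nlrp3 (2.14 ± 1.10 TPM), Nlrc4 (1.68 ± 0.251 TPM), Naip5 (1.47 ± 1.15 TPM), Nlrp1b (1.32 ± 0.579 TPM) and Nlrp12 (0.0926 ± 0.0279 TPM). In the controls it was Gsdmd (26.6 ± 3.82 TPM), Casp4 (17.6 ± 0.747 TPM), Casp1 (12.5 ± 0.292 TPM), Pycard (9.06 ± 1.95 TPM), Naip2 (1.66 ± 0.0559 TPM), Naip5 (1.35 ± 0.0759 TPM), Nlrc4 (1.07 ± 0.0666 TPM), Nlrp3 (0.521 ± 0.215 TPM), Nlrp1b (0.326 ± 0.0598 TPM) and Nlrp12 (0.0350 ± 0.0216 TPM). The pore former, caspases and adaptor thus stood above all 6 sensors in both groups. Neighbours in the knockout order overlapped in range except Pycard over Naip2 and Nlrp1b over Nlrp12, while in the controls only Nlrp3 and Nlrp1b overlapped.

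**Figure D4:**
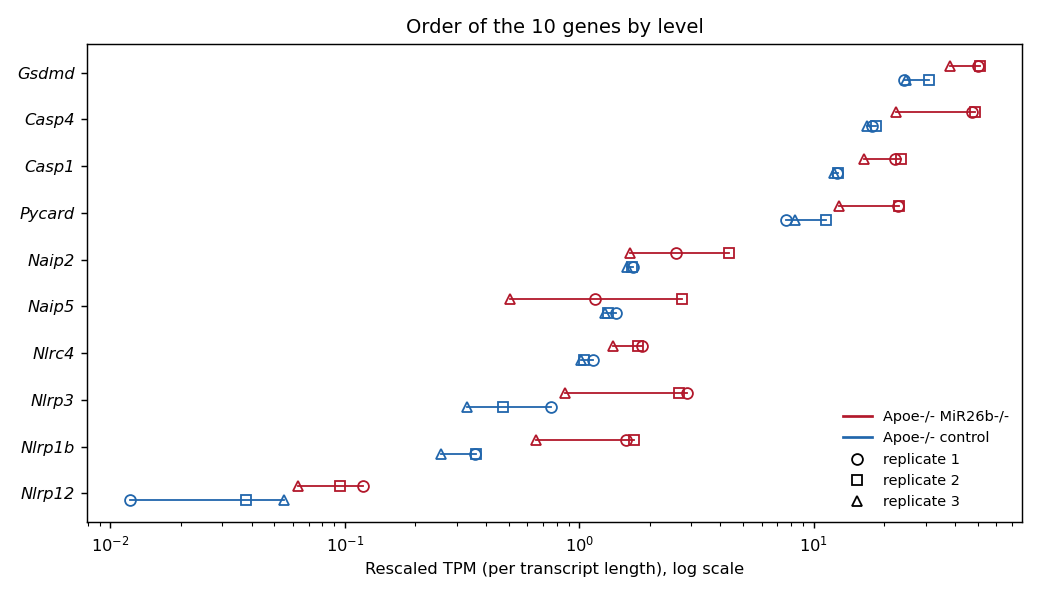
Rescaled TPM (x axis, log scale) of the 10 genes, ordered from top to bottom by the control mean, with Apoe-/- MiR26b-/- libraries in the upper red row of each gene and Apoe-/- control libraries in the lower blue row; shapes mark replicates and lines span each group. The 4 effector and adaptor genes lie right of the sensors in every library, and the control points lie closer together than the knockout points for each gene except Nlrp12.

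Ratios between the genes within a library, 5 in all, were compared with 2-sided exact permutation tests, whose smallest possible p with 3 libraries per group is 0.1. The Casp4 to Casp1 ratio in TPM was 2.13, 2.08 and 1.37 in knockout libraries, against 1.41, 1.44 and 1.39 in control libraries (exact permutation p = 0.4, adjusted over the 5 ratios 0.5). In knockout replicate 3 this TPM ratio was just below the lowest control (1.37 against 1.39), and in the other knockouts it was above all controls. The count behind 1 unit of Casp4 TPM ran from 32.5 in control replicate 1 to 36.5 in knockout replicate 1, so a margin this small depends on the measure. The Gsdmd to Casp1 ratio was 2.26, 2.18 and 2.31 in knockouts, against 1.93, 2.43 and 2.03 in controls (exact permutation p = 0.5, adjusted 0.5). The Nlrp3 to Nlrc4 ratio was 1.54, 1.50 and 0.625 in knockouts, against 0.661, 0.452 and 0.328 in controls (exact permutation p = 0.2, adjusted 0.333). In TPM the groups overlapped in each of the 5 ratios, the others being Pycard to Casp1 and Nlrp3 to Pycard (exact permutation p = 0.2 and adjusted 0.333 for both). In the ratios of Nlrp3 to Nlrc4 and to Pycard, control replicate 1 was the only control above knockout replicate 3.

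For Nlrp3 the count behind 1 unit of TPM was 99.8 in knockout replicate 1 and 94.5 in control replicate 1, where the other 4 libraries lay between 131 and 132. For Pycard it was 49.2, 50.4 and 60.2 in knockouts and 72.4, 54.0 and 59.7 in controls, and for Casp1 it was between 43.7 and 44.3 in every library. This quotient follows the lengths of the transcripts that reads were assigned to. CPM and TPM did not rank the libraries alike for Nlrp3, Pycard, Naip2, Casp4 and Gsdmd. The overlap in both ratios with Nlrp3 came from control replicate 1, which had the lowest Nlrp3 quotient, and ratios in CPM were not tested.

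Promoters were looked at for motifs of factors that prime inflammasome genes, since 8 of the genes stood higher together. RefSeq promoter windows (250 bases before to 50 bases after the start, GRCm38.p6) matched 9 of the 10 genes, with 12 windows. Both strands were searched for an NF-κB motif (GGG and CC with any 5 bases between them), a PU.1 motif (GAGGAAGT), the core of the interferon response element (GAAA, any 2 bases, GAAA) and a STAT motif (TTCNNNGAA). The NF-κB motif was present in 6 of the 12 windows (Nlrp3, Naip5, Casp1 and Casp4) and in 50.8% of all 32851 windows. GAGGAAGT was in 2, those of Nlrp1b and Pycard, and in 3.2% of all windows. TTCNNNGAA was in 1 (Nlrp12; 8.3% of all windows) and the interferon response element core in 0 (3.44% of all windows). Windows of Casp4 (chr9:5308599-5308898, plus strand), Nlrp1b (chr11:71230684-71230983, minus strand) and Pycard (chr7:127993818-127994117, minus strand) are shown because they hold the matches of Casp4 and the less common GAGGAAGT, in capitals; in Casp4 the first capital run holds overlapping matches on both strands, from 93 bases before the start.
Casp4 promoter: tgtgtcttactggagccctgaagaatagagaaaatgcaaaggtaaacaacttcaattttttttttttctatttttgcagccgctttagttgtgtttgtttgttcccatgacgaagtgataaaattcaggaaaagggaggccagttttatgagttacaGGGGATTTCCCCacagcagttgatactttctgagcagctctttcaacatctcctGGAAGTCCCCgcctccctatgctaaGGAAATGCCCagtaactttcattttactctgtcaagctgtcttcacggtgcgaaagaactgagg
Nlrp1b promoter: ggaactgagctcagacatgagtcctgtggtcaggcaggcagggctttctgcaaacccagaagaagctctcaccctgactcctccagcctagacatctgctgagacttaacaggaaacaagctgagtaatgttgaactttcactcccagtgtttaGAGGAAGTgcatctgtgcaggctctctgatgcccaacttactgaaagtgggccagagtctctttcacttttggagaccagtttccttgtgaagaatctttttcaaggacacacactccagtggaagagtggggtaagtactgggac
Pycard promoter: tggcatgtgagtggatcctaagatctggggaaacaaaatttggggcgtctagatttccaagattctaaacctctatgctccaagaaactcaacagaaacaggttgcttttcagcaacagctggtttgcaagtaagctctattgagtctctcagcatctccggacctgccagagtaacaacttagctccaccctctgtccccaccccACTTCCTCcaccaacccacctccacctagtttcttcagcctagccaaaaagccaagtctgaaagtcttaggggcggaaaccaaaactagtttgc
In Nlrp1b the match begins 96 bases before the start, and in Pycard, on the other strand, 44 bases before it. A match is a string of letters and does not show that a factor was bound.

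Other genes of the pathway, grouped by role, were read from the same fit. Of 84 listed genes 77 were tested, 26 rose and 0 fell by edgeR, and 48 were higher and 1 lower at an unadjusted p under 0.05. Over all tested genes 6.5% rose and 3.84% fell, and 17.5% were higher and 13.2% lower at the unadjusted threshold. DESeq2 called 42 higher and 0 lower, where 2086 of 16037 genes in all were higher and 1357 lower. Without knockout replicate 3 edgeR called 48 higher and 1 lower, where 3051 of 17720 genes in all were higher and 2028 lower. Without 1 of the other libraries edgeR called 0 to 3 higher and 0 lower, where 0 to 52 of all genes were higher and 0 to 22 lower. The lists were compiled with earlier results of these data known, and their counts are a description.

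Among 14 other sensors 6 rose and 0 fell, with a median log2 difference of 0.77, against -0.003 over all tested genes. Aim2, the sensor of cytosolic DNA, had 8.25, 8.90 and 4.33 CPM in knockouts, against 2.52, 3.11 and 1.48 CPM in controls, with no overlap and a log2 difference of 1.60 (SE 0.36, adjusted p = 0.0433). Mefv, the gene of pyrin, had 6.84, 9.98 and 2.39 CPM in knockouts, against 1.20, 0.744 and 0.380 CPM in controls (log2 difference 3.05, SE 0.62, adjusted p = 0.0361). In both, as in Nlrp3, the third knockout library was the lowest of its group and still above the controls. Zbp1, a sensor of Z-form nucleic acid, rose 4.20-fold (adjusted p = 0.0173), Nlrc5, known as the activator of MHC class I genes, 1.72-fold (adjusted p = 0.0246) and Nod1, a peptidoglycan sensor, 1.48-fold (adjusted p = 0.0325).

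Among 22 activators and regulators 10 rose and 0 fell, with a median log2 difference of 0.52. Trim30a, which restrains NLRP3 in mice, rose 2.74-fold, to 44.3 ± 8.44 CPM in knockouts, against 16.1 ± 1.25 CPM in controls (adjusted p = 0.0107). Irf1, an interferon response factor, rose 1.41-fold (adjusted p = 0.0151), Gbp5, a guanylate-binding protein that promotes NLRP3 assembly, 1.46-fold (adjusted p = 0.0267), and Gm12250, which encodes IRGB10, a GTPase that acts on bacterial membranes, 2.20-fold (adjusted p = 0.0284). Nek7, the kinase that NLRP3 binds to assemble, was at 125 ± 9.26 CPM in knockouts and 136 ± 7.90 CPM in controls, with overlapping groups (log2 difference -0.12, adjusted p = 0.332). Irf8, which mouse macrophages need for Naip gene expression, averaged 34.7 ± 14.2 CPM in knockouts and 10.2 ± 5.70 CPM in controls, with no overlap of the libraries, and was not called (log2 difference 1.77, SE 0.49, adjusted p = 0.0649).

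Among 7 other caspases 1 rose, Casp9 of the apoptosome, by 1.25-fold (adjusted p = 0.0417). Of 11 other pore formers and membrane rupture genes, 4 were tested and 2 rose: Gsdme, a gasdermin cut by caspase-3, 1.58-fold (adjusted p = 0.0277), and Mlkl, the pore former of necroptosis, 1.77-fold (adjusted p = 0.0322). Genes of the ESCRT machinery that removes gasdermin pores from the membrane had 0 of 7 called each way by edgeR and 1 higher at an unadjusted p under 0.05, with a median log2 difference of 0.04; those of lowest p were Chmp1a (log2 difference 0.19, adjusted p = 0.109) and Vps4a (-0.08, adjusted p = 0.242).

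The cytokine substrates differed in size. Il1b, the precursor that caspase-1 cuts, had 19.0, 24.0 and 4.08 CPM in knockouts, against 1.56, 1.21 and 0.436 CPM in controls, and rose 14.6-fold (log2 difference 3.87, SE 0.76, adjusted p = 0.0340). Il18, the other classical substrate, had 2.34, 2.51 and 2.07 CPM in knockouts, against 1.37, 1.89 and 1.50 CPM in controls, and was not called (log2 difference 0.54, SE 0.18, adjusted p = 0.0959). Both had every knockout above every control, but the knockouts spanned a wide range for Il1b and a narrow one for Il18. Il1a, which is released when cells lyse, rose 7.17-fold (adjusted p = 0.0322), the alarmin gene Il33 2.31-fold (adjusted p = 0.0377) and Il18bp, the soluble inhibitor of IL-18, 3.02-fold (adjusted p = 0.0341). In all, 4 of 11 substrates, receptors and inhibitors rose and 0 fell, with a median log2 difference of 1.21.

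Priming is the signalling that raises inflammasome transcripts ahead of assembly. Of 12 listed genes of this signalling and its regulators, 3 rose and 0 fell, with a median log2 difference of 0.33. Nfkbiz, an NF-κB cofactor gene, rose 1.82-fold to 70.1 ± 5.06 CPM in knockouts, against 38.5 ± 2.86 CPM in controls (adjusted p = 0.00945), and knockout replicate 3, at 70.5 CPM, lay between the other knockouts at 64.8 and 74.9 CPM. Cd14, the co-receptor for lipopolysaccharide, rose 3.87-fold (adjusted p = 0.0390) and Tlr2 2.19-fold (adjusted p = 0.0477).

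**Figure D5:**
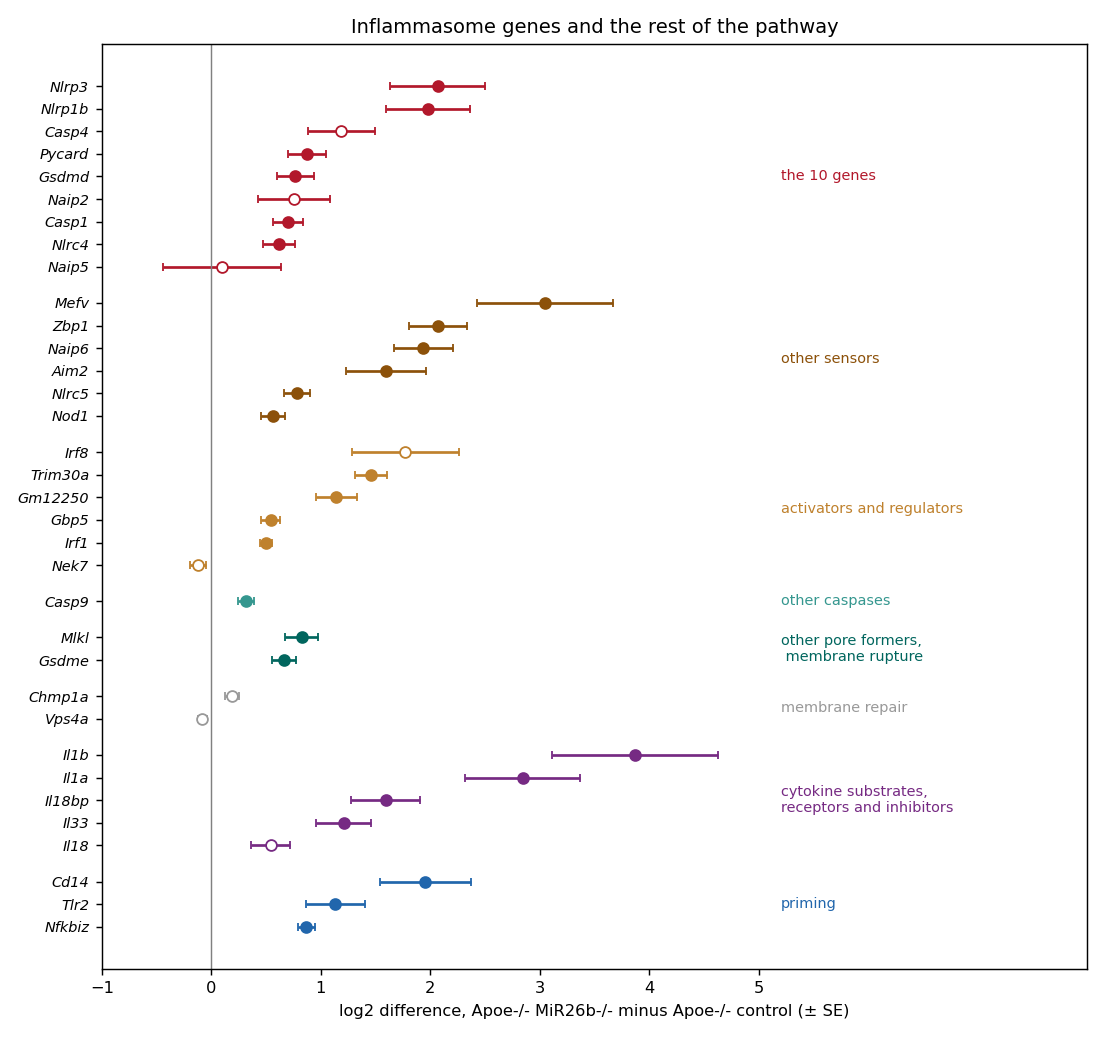
Log2 difference, Apoe-/- MiR26b-/- minus Apoe-/- control (x axis, ± SE), for the 9 tested inflammasome genes and the named genes of each pathway list; filled points are called by edgeR and open points are not. Il1b lies farthest right at 3.87, and the membrane repair genes and Nek7 lie within 0.19 of 0.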

How the data were processed

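RNA of 3 Apoe-/- MiR26b-/- and 3 Apoe-/- control aorta libraries was analysed, with groups and replicate numbers from the labels. The authors' tools, per the submitters' processing notes, were kallisto 0.46.2 with Trim Galore 0.6.5 and FastQC 0.11.8, on GRCm38; kallisto divides a read between similar transcripts. Mean RNA integrity was 7.0, per the labels' protocols. The authors deposited estimated counts, which were rounded here, and TPM values that their columns' sums show to be rescaled, used as a signal for levels between genes. Low values in each library were mostly whole multiples (66.4% to 67.7% within 0.02) of a constant of 0.900 to 1.068; no label used here records that step. Whether counting kept strand is not given in the sources used here.

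Counts were filtered with filterByExpr (minimum count 10), TMM-scaled and fitted in edgeR 4.0.16 (R 4.3.3; quasi-likelihood test), with Benjamini-Hochberg adjustment over all tested genes; the script was tested on simulated data. The biological coefficient of variation was 0.164, and the SE is the log2 difference divided by the root of F. These library totals limit the precision of genes near 0 CPM. No pair of libraries of a group agreed within sampling noise (mean chi-square per gene of at least 11.76). Alternatives used DESeq2 1.42.0, limma 3.58.1, other scalings and filters, a replicate block, a fat covariate and omission of each library. The medians of cell type levels per library used a pseudocount of 0.05 CPM.

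The longest 3′ UTR of each gene in GENCODE mouse release M21 was searched for seed sites, and all its transcripts for shared 31-base words. Mature miRNAs and promoters are RefSeq's. Protein sequences were not used here.

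Named genes are the 10 genes, up to 4 called genes of lowest p in each pathway list and direction (2 of lowest p where none was called), and Il1b, Il18, Il1a, Aim2, Nek7, Irf8 and Mefv; marker genes are named to describe their lists. The members and lists were chosen with earlier results of these data known.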

Additional observations from a re-analysis of the deposited data

How the results depend on the processing

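With all libraries, edgeR called 1131 genes higher and 667 lower in the knockouts, 6 of the 10 inflammasome genes higher and 26 other pathway genes higher. These counts were 2086, 1357, 7 and 42 with DESeq2, 559, 514, 1 and 14 with limma-voom, 461, 251, 2 and 11 with limma on log2(TPM + 1), 641, 301, 2 and 15 on log2(TPM + 0.1), and 99, 90, 0 and 3 with the fat covariate. With library size alone as the scaling they were 1476, 447, 6 and 31. Over the omission of 1 library edgeR called 0 to 3051 genes higher, 0 to 2028 lower, 0 to 9 inflammasome genes and 0 to 48 other pathway genes higher, and 0 to 1 pathway genes lower; the highest counts came without knockout replicate 3, and an omission also leaves fewer degrees of freedom. Without control replicate 1 or 3 edgeR called 0 genes, while 4056 had an unadjusted p under 0.05 both times. DESeq2 under the same omissions called 1172 to 3127 genes higher, 771 to 2552 lower, 6 to 8 inflammasome genes, 27 to 48 pathway genes higher and 0 to 1 lower; without knockout replicate 3 it called 3127 and 2552 genes, 48 pathway genes higher and 1 lower, and without control replicate 2 it called 1883 and 1191 genes and 1 pathway gene lower. The log2 difference of Naip5, 0.09 in all libraries, turned to -0.23 with limma-voom, -0.030 and -0.16 with the TPM fits, -0.20 with the replicate block, -0.37 with the fat covariate, and -0.72 (edgeR) and -0.73 (DESeq2) without knockout replicate 2; over the omissions it was -0.72 to 0.50. The causes were not tested. Correlations of deviations from the group mean were -0.092, 0.234 and 0.076 between same-numbered libraries, and -0.206 to 0.116 between differently numbered ones. Whether replicate numbers pair the libraries was not tested. With the replicate number as a block edgeR called 1295 genes higher and 700 lower, 6 inflammasome genes and 28 other pathway genes. Nlrc4 had 2 seed sites whether the longest or any annotated 3′ UTR was used, and the other 9 genes had 0 of at least 7 bases.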
